A study of Mus musculus with 6 samples.

Results

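Tyrosine and tryptophan are broken down mainly in hepatocytes, and the genes described here are 9 enzymes of these routes, chosen by name among the 29981 rows of a deposited liver RNA-seq table. They are Tat, Hpd, Hgd, Gstz1 and Fah, 5 genes of tyrosine breakdown, and Tdo2, Kmo, Kynu and Haao, 4 genes of the kynurenine route of tryptophan. Each had a row of its own name. Livers came from C57BL/6 mice. In the HSKO group (n = 3), the lipid transporter gene Abca1 was deleted in hepatocytes by a Cre recombinase driven from the Albumin promoter, so other liver cells are not targeted. The controls, called wild type in the labels and WT here (n = 3), were floxed mice, and food was withheld from all mice from 9 am to 1 pm before livers were taken. The sources used here give no ages. Nothing in the labels ties each library to its own mouse, so the p-values reflect only how far these libraries differ, which may be technical.

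Tyrosine breakdown starts with the aminotransferase Tat, which makes hydroxyphenylpyruvate. Hpd, Hgd, Gstz1 and Fah then act in that order to open the ring and release fumarate and acetoacetate. Loss of Hpd, Hgd or Fah activity in humans causes inherited disorders of tyrosine metabolism, alkaptonuria in the case of Hgd. Tryptophan enters the kynurenine route through the dioxygenase Tdo2. Kmo, Kynu and Haao convert kynurenine towards quinolinate, from which NAD can be made. Tat and Tdo2 are textbook targets of glucocorticoid hormone in liver.

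Depth was low. WT libraries held 838637 to 933319 recovered reads and HSKO libraries 631020 to 702013, and a single row, BC071253, held 43.1% to 57.8% of them. Abca1, the check of the labels, was covered by 20, 36 and 34 reads in WT but only 2, 1 and 2 in HSKO (limma adjusted p = 0.000862). The defining hepatocyte markers were present, since all 14 listed were above 0, and their summed level was 14771 to 17392 normalized reads in WT and 9161 to 14036 in HSKO. In bulk liver, fewer hepatocytes and less RNA per hepatocyte cannot be told apart. Values below are normalized reads as deposited, that is, reads over the size factor of the library, and a log2 fold change is the difference HSKO minus WT of log2(value + 1). A gene is called where the limma adjusted p is below 0.05.

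The promoters of the members with the highest and the lowest log2 fold change, Tat and Haao, are shown because they mark the ends of the range described below. They are RefSeq sequences (build GRCm38.p6), 5′ to 3′ on the gene's strand, of up to 250 bases before the annotated start and ending before any exon of a coding GENCODE transcript. Capitals mark matches, on either strand, to 5 letter patterns, which are TATAAA (the TATA box), CCAAT (the box of that name), GTTAAT (part of the HNF1 site), CAAAG (core letters of the HNF4 site) and AGAACA (part of the glucocorticoid receptor site).
Tat, chr8:109990186-109990435, plus strand: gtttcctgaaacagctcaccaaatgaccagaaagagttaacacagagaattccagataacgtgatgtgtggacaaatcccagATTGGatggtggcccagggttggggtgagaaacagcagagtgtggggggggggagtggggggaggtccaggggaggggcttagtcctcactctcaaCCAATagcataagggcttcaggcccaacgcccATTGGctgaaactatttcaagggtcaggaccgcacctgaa
Haao, chr17:83846813-83847040, minus strand: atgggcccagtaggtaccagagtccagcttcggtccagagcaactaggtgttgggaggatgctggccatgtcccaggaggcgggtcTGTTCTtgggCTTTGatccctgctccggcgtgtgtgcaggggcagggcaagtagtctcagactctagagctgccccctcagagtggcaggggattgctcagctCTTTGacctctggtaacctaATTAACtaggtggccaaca
The Tat window held 3 matches, all to CCAAT, beginning 168, 72 and 40 bases before the start. The Haao window held 4 matches, of which AGAACA began 164 bases before the start, CAAAG began 154 and 61 bases before it, and GTTAAT began 41 bases before it. In GENCODE M21 the Haao gene spans chr17:83831156-83847963, so this window lies inside that span. Its matches are therefore placed against a start within the gene, not its outermost one. Among 32851 promoters, 33.8% held CCAAT within 250 bases, 48.6% CAAAG, 16.1% AGAACA, 12.4% TATAAA and 6.43% GTTAAT. Of the members, 8 had an entry, all except Kynu, and among these Haao was the only one with AGAACA and the only one with GTTAAT. The matches overlapped no other match. They are letter matches and say nothing of binding.

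Kmo and Haao, which act in the kynurenine route after the entry step, were lower in HSKO livers under all 7 scalings of the libraries described below, and called lower under 6 of them. With the deposited scaling no member was called higher. Tat was then the only member with a log2 fold change above 0, and it missed the threshold. Scaling to hepatocyte markers put 6 members above 0 and called Tat higher. It also called 40.4% of all tested genes higher and put their median at 0.56. Of the 6 members, only Tat lay above that median. Before this scaling, the median of the 14 markers themselves was -0.56. Under the deposited scaling, limma called 2 of the 9 members lower and 0 higher, with all 9 tested. At an unadjusted p below 0.05 it gave 1 higher, Tat, and 2 lower. EdgeR also called 2 lower and 0 higher, against 21.9% lower and 24.9% higher of all genes. DESeq2 called 0 and 0, against 6.62% lower and 25% higher of all genes. Among all 2750 genes tested, 11.6% were called lower and 28.5% higher. With so few members, 2 of 9 is near that background and sets the group apart from other genes in neither direction. The median log2 fold change of the members was -0.30, against 0.07 over all genes tested.

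**Figure D1:**
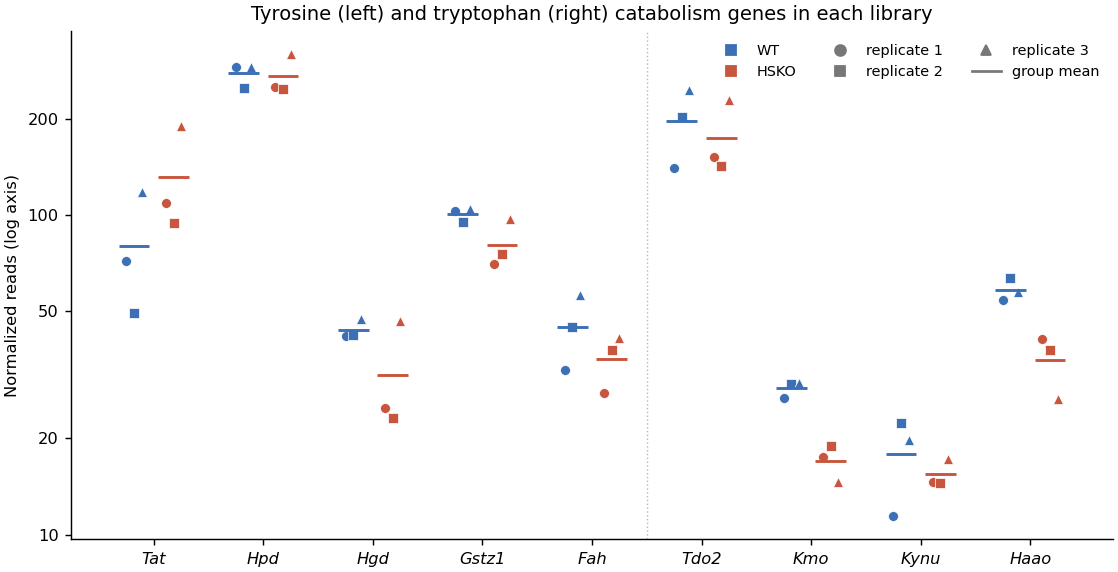
Normalized reads (log axis) of the 9 members in each library, with WT in blue, HSKO in red, 1 marker shape per replicate number and a bar at the group mean. For Kmo and Haao all 3 HSKO points lie below all 3 WT points, and for the other 7 members the groups overlap.

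Tdo2, which commits tryptophan to the kynurenine route, was at 140, 203 and 246 in the WT libraries and at 152, 143 and 230 in the HSKO libraries. The groups overlapped, and HSKO replicate 3 was above WT replicates 1 and 2. The log2 fold change was -0.17 (95% interval -0.72 to 0.38, limma adjusted p = 0.635), an interval that covers both a moderate fall and a moderate rise. Tdo2 was called lower with total reads (adjusted p = 0.0246) and with reads outside the most abundant row (0.0291).

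Kmo, the kynurenine monooxygenase of the outer mitochondrial membrane, was at 26.7, 29.6 and 29.9 in WT and at 17.5, 18.9 and 14.6 in HSKO. Every HSKO library was below every WT library, which was true of 20.1% of all genes tested. Means were 28.7 ± 1.76 and 17.02 ± 2.18 (SD, n = 3), 1.69 times lower in HSKO (log2 fold change -0.73, SE 0.27, limma adjusted p = 0.0408). These values rest on 35, 45 and 53 reads in WT and 12, 13 and 11 reads in HSKO. Pooled over libraries and corrected for size factors, the HSKO to WT ratio of reads was 0.587 (exact 95% interval 0.394 to 0.853, counting error only). The call was lost whichever of the 6 libraries was left out (adjusted p between 0.0501 and 0.123), with no filter on low values (0.161), when DESeq2 was used (0.144) and when libraries were scaled to hepatocyte markers (0.593).

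Kynu, the kynureninase that acts on the product of Kmo, was at 11.4, 22.4 and 19.7 in WT and at 14.6, 14.5 and 17.3 in HSKO. WT replicate 1 was the lowest of the 6 libraries and the other 2 WT libraries the highest, so the HSKO libraries lay inside the WT range. Its log2 fold change was -0.15 (95% interval -0.82 to 0.52, limma adjusted p = 0.735), from 15 to 35 reads per WT library and 10 to 13 per HSKO library.

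Haao, the hydroxyanthranilate dioxygenase whose product yields quinolinate, was at 54.2, 63.8 and 57.5 in WT and at 40.9, 37.8 and 26.6 in HSKO. Again the groups did not overlap, and HSKO replicate 3 was the lowest library, as it was for Kmo. Means were 58.5 ± 4.90 and 35.1 ± 7.54 (SD, n = 3), 1.67 times lower in HSKO (log2 fold change -0.74, SE 0.26, limma adjusted p = 0.0294). From pooled reads, 270 in WT and 74 in HSKO, the corrected ratio was 0.594 (exact 95% interval 0.453 to 0.771, counting error only). Leaving out WT replicate 2 or 3 ended the call (adjusted p = 0.117 and 0.0598), as did leaving out HSKO replicate 2 or 3 (0.0503 and 0.109). DESeq2 gave an adjusted p of 0.0648, and limma gave 0.0953 with no filter on low values, 0.0513 without the mean-variance trend and 0.591 after scaling to hepatocyte markers.

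Kmo and Kynu are also expressed in macrophages. The 10 Kupffer cell and macrophage markers counted, fewer than were listed, summed to 57.5 to 94.8 normalized reads in WT and 43.6 to 81.1 in HSKO. These ranges overlapped, and all 10 were above 0 in some library. Only 2 of these 10 passed the filter, of which 1 was called lower and 0 higher. Of the 14 hepatocyte markers, all tested, 5 were called lower and 0 higher, with a median log2 fold change of -0.56. Among all genes tested, 11.6% were called lower and 28.5% higher, with a median of 0.07. The 9 stellate cell markers summed to 32.8 to 38.2 in WT and 13.2 to 21.8 in HSKO, and the 9 endothelial markers to 41.2 to 49.1 and 21.8 to 38.0. The part of these cells in the values of Kmo and Haao was not tested.

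In the tyrosine route, none of the 5 genes was called in either direction with the deposited scaling. Over the 7 scalings Hgd and Gstz1 were called lower in 4, Hpd in 3 and Fah in 2, and Tat was called higher in 1. Tat was at 71.7, 49.4 and 118 in the WT libraries and at 110, 94.5 and 190 in the HSKO libraries. Replicate 3 was the highest library of each group, and WT replicate 3 lay above HSKO replicates 1 and 2. Means were 79.8 ± 35.2 and 131 ± 51.4 (SD, n = 3), with the log2 fold change at 0.74 (SE 0.31, 95% interval 0.08 to 1.39, unadjusted p = 0.0287, limma adjusted p = 0.0658). Tat passed as higher without WT replicate 3 (log2 fold change 1.06, adjusted p = 0.0119), when only genes with a mean of at least 50 were tested (0.74, adjusted p = 0.0392) and when scaled to hepatocyte markers (1.24, adjusted p = 0.00287), and was at 0.07 (adjusted p = 0.881) with scaling to total reads. Without WT replicate 2 or HSKO replicate 3 its log2 fold change was 0.44 in both cases.

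Hpd, the hydroxyphenylpyruvate dioxygenase, was at 292, 251 and 292 in WT and at 253, 249 and 319 in HSKO, with HSKO replicate 3 the highest library and the ranges overlapping. The log2 fold change was -0.03 (95% interval -0.50 to 0.44, limma adjusted p = 0.923). With 381 to 517 reads per WT library and 171 to 240 per HSKO library, counting error was small beside that interval.

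Hgd, the homogentisate dioxygenase, was at 42.0, 42.1 and 47.4 in WT and at 24.8, 23.3 and 46.5 in HSKO. HSKO replicates 1 and 2 were both below all WT libraries, while replicate 3 lay within the WT range. The log2 fold change was -0.53 (SE 0.29, limma adjusted p = 0.144). Without HSKO replicate 3 it was -0.84 and passed (adjusted p = 0.0250). With all 6 libraries Hgd was also called lower under upper quartile scaling (0.0221), quantile normalization (0.0402), total reads (0.00626) and reads outside the most abundant row (0.00539).

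Gstz1, the maleylacetoacetate isomerase, was at 103, 95.4 and 105 in WT and at 70.2, 75.6 and 97.1 in HSKO. HSKO replicates 1 and 2 were again below all WT libraries and replicate 3 was not. Its log2 fold change was -0.33 (limma adjusted p = 0.277), and it passed as lower with total reads (adjusted p = 0.00458). In GENCODE M21 the exons of Gstz1 share 465 bases with Pomt2 on the other strand, whose own row averaged 12.98 normalized reads. Whether the counting used strand is not stated in the labels, so reads from that stretch cannot be assigned. They also share 156 bases with Gm6566 on that strand, while exons of the other 8 members shared no base with another gene.

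Fah, the fumarylacetoacetate hydrolase of the last step, was at 32.8, 44.7 and 56.4 in WT and at 27.8, 37.8 and 41.2 in HSKO. The groups overlapped, and WT replicate 1 was below HSKO replicates 2 and 3. The log2 fold change was -0.30 (95% interval -0.88 to 0.27, limma adjusted p = 0.388).

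HSKO replicate 3 was the highest HSKO library for most members and the lowest for Kmo and Haao. Its level relative to the mean of HSKO replicates 1 and 2 was 1.93-fold for Hgd, 1.86-fold for Tat, 1.56-fold for Tdo2, 1.33-fold for Gstz1 and 1.27-fold for Hpd. It was 1.26-fold for Fah and 1.19-fold for Kynu. For Kmo it was 0.803-fold and for Haao 0.676-fold. These rest on 12, 13 and 11 reads of Kmo and 28, 26 and 20 of Haao in HSKO replicates 1 to 3. Whether these 2 differences exceed counting error was not tested. The summed hepatocyte markers were also highest in that HSKO library, at 14036 normalized reads against 9161 and 10544. Their part in the result was not tested.

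**Figure D2:**
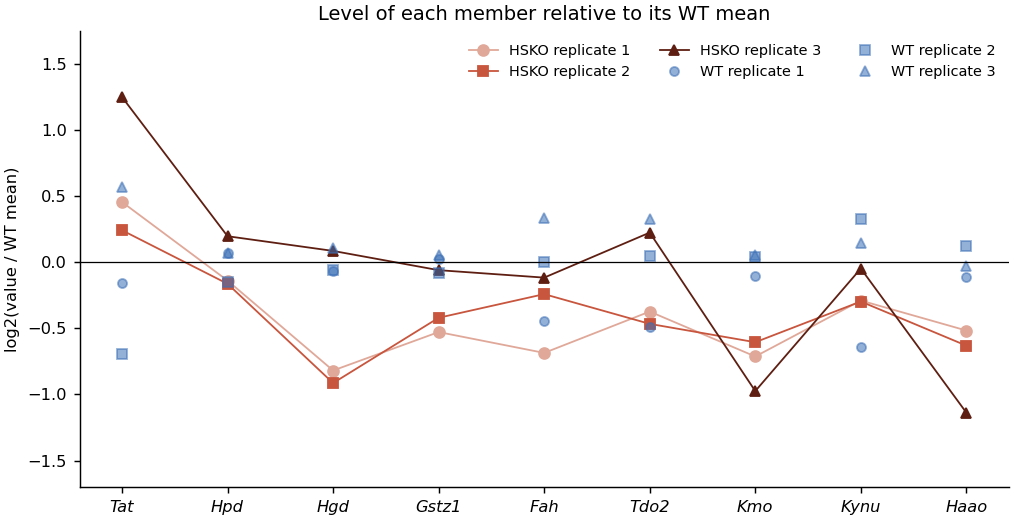
Level of each member in each library, as log2 of its value divided by the WT mean, with HSKO libraries joined by lines and WT libraries as blue points. HSKO replicate 3 lies above the other HSKO libraries for Tat, Hgd and Tdo2 and below them for Kmo and Haao.

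Levels can be set beside each other only per length. Divided by the length of the principal transcript in GENCODE M21, Hpd was highest in WT at 198 ± 16.9 normalized reads per kb, followed by Gstz1 at 61.1 ± 3.03 and Tdo2 at 57.3 ± 15.5 (SD, n = 3). Haao was at 42.4 ± 3.55, Tat at 33.6 ± 14.8, Fah at 28.2 ± 7.44 and Hgd at 25.7 ± 1.81. Kmo at 10.7 ± 0.654 and Kynu at 6.53 ± 2.09 were the lowest. Hpd was separate from Gstz1, Hgd from Kmo and Kmo from Kynu in all WT libraries, whereas the neighbours from Gstz1 down to Hgd overlapped. The labels do not state which transcripts the authors counted, so the order depends on the lengths chosen.

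How the libraries were scaled set the direction of many members. Over 7 scalings, the members' median log2 fold change lay between -0.96 with total reads and 0.20 with hepatocyte markers, while the median of all genes tested moved from -0.57 to 0.56. The shift of that overall median against the deposited scaling was -0.28 with upper quartile scaling, -0.09 with quantile normalization, -0.20 with edgeR, -0.64 with total reads, -0.47 with reads outside the most abundant row and 0.49 with hepatocyte markers. The number of members called lower was 2, 4, 5, 2, 7, 7 and 0 in the order deposited, upper quartile, quantile, edgeR, total reads, reads outside the top row and hepatocyte markers. The share of all genes called lower was 11.6%, 25.6%, 18.3%, 21.9%, 38%, 33.2% and 1.53% in the same order, and the share called higher 28.5%, 21.1%, 21.6%, 24.9%, 8.04%, 15.6% and 40.4%. With hepatocyte markers, Tat was the 1 member called higher.

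Relative to the median of all genes, Kmo lay between -0.85 and -0.79 log2 units over the 7 scalings and Haao between -1.01 and -0.80. Tat lay above it in all 7, between 0.29 and 0.68, with the lowest value under quantile normalization. Hgd lay between -0.75 and -0.56 and Gstz1 between -0.72 and -0.38. With the deposited scaling, 4 members were also set against the median of genes with a mean of at least 50. Tat then lay at -0.14, Hpd at -0.91, Gstz1 at -1.21 and Tdo2 at -1.04. Since all 7 scalings rest on the same libraries, they do not count as separate tests.

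**Figure D3:**
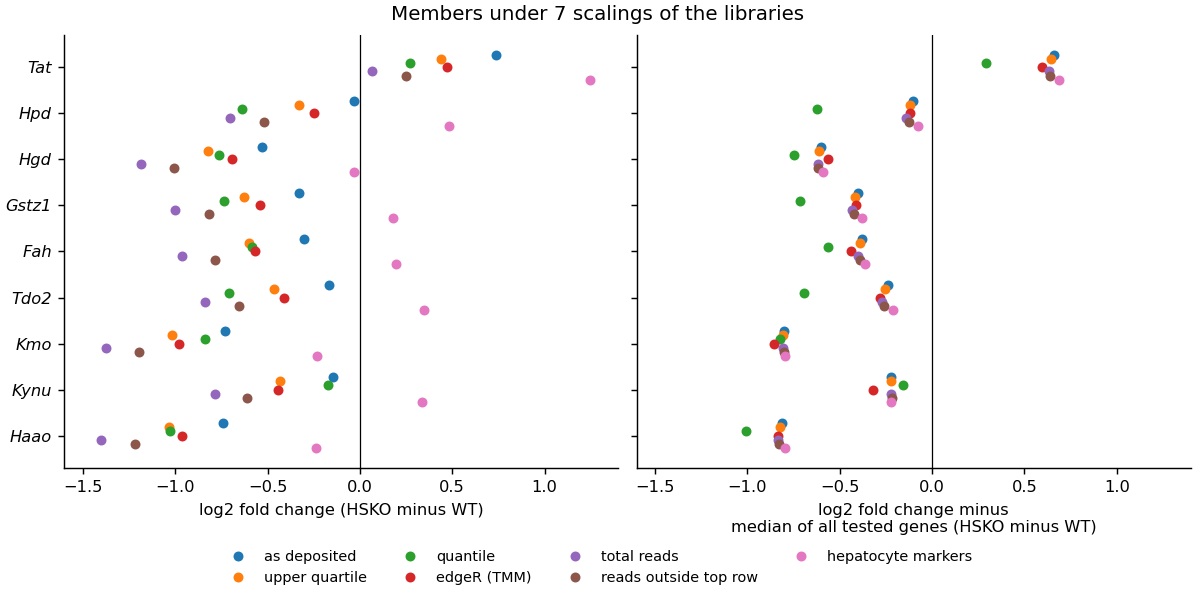
Log2 fold change of each member, HSKO minus WT, under 7 scalings of the libraries (colours), as computed on the left and after subtracting the median of all tested genes on the right. On the left Hpd, Gstz1, Fah, Tdo2 and Kynu change sign with hepatocyte markers, and on the right Tat stays above 0 and the other 8 members below.

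Ratios of reads within a library do not depend on scaling. The ratio of Tat to Haao reads was 1.32, 0.773 and 2.06 in WT and 2.68, 2.50 and 7.15 in HSKO. The ratio of Tat to Hgd was 1.71, 1.17 and 2.50 in WT and 4.41, 4.06 and 4.09 in HSKO. Its log2 mean was higher by 1.29 in HSKO, where the libraries lay close together. Tat was higher relative to Hgd, Gstz1, Fah, Tdo2, Kmo, Kynu and Haao in every HSKO library than in any WT library. These are 7 of its 8 ratios, which all share the Tat reads. Of all pairs of tested genes, 45.2% separated the groups. For Tat to Hpd the groups overlapped, at 0.245, 0.197 and 0.406 in WT and 0.434, 0.380 and 0.596 in HSKO.

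Of the 36 ratios among the 9 members, 13 separated the groups, whereas 45.2% of all pairs of tested genes did. The members' share was not above that background. The two-sided exact permutation p of each of the 13 was 0.1, the smallest that 3 against 3 can give, and 0.277 after Benjamini-Hochberg adjustment over 36. No ratio therefore passed, and none could have in this design. Within the kynurenine route, Kynu to Haao was 0.211, 0.351 and 0.343 in WT and 0.357, 0.385 and 0.650 in HSKO.

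**Figure D4:**
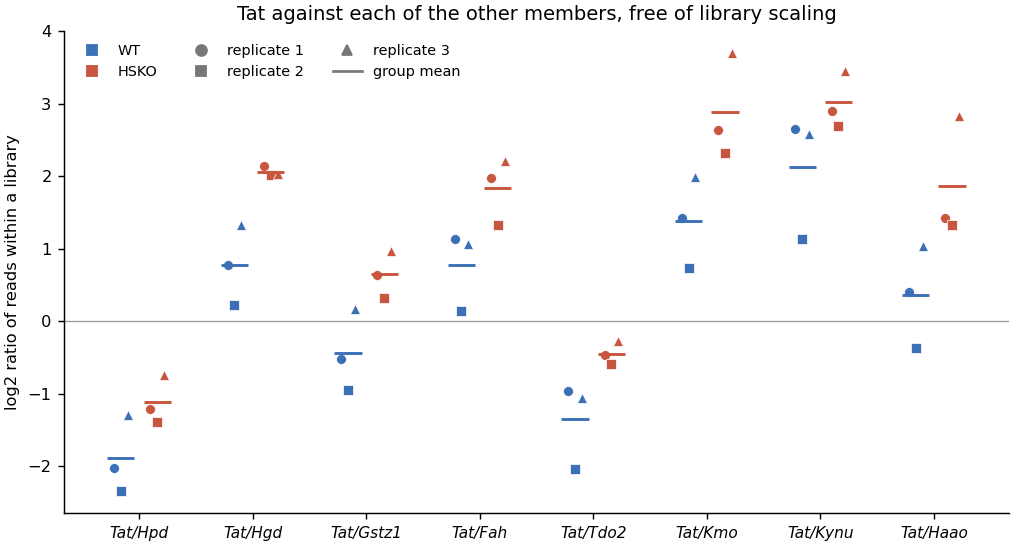
Log2 ratio of Tat reads to the reads of each other member within the same library, with WT in blue, HSKO in red and bars at group means. The groups are apart for 7 of the 8 ratios, which share the Tat reads, and overlap for Tat/Hpd. They are apart for 45.2% of all pairs of tested genes.

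Around the members, 30 further genes of tryptophan, tyrosine and cofactor metabolism had a row, and 11 passed the expression filter. Of these 11, limma called 2 lower and 0 higher, against 11.6% and 28.5% of all genes. At an unadjusted p below 0.05, for which no share of all genes is given here, the list also had 0 higher. It had 0 higher with edgeR and DESeq2 after adjustment too. Gcdh, the glutaryl-CoA dehydrogenase shared by tryptophan and lysine breakdown, was at 55.7, 56.6 and 62.0 in WT and at 35.1, 26.2 and 26.6 in HSKO. The groups did not overlap (log2 fold change -0.98, SE 0.25, limma adjusted p = 0.00536). Qdpr, which regenerates the tetrahydrobiopterin cofactor, was at 32.1, 27.6 and 32.1 in WT and at 16.1, 8.72 and 22.6 in HSKO, 1.94 times lower (limma adjusted p = 0.0189). The call of Qdpr was lost without HSKO replicate 2 (adjusted p = 0.108), without WT replicate 3 (0.0656), with no filter (0.0661) and with DESeq2 (0.0759). Both calls were lost with scaling to hepatocyte markers, where the log2 fold changes were -0.47 and -0.51.

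The transaminase Ccbl2, an older symbol of Kyat3, averaged 14.7 ± 7.72 in the controls and 5.49 ± 4.69 in HSKO (SD, n = 3) and missed the threshold (log2 fold change -1.40, limma adjusted p = 0.0627). The remaining 8 tested genes had log2 fold changes from -0.75 for Aadat to 0.65 for Got1, and none passed. Aldh8a1, which acts on a side branch of the kynurenine route, was at 78.0 ± 11.4 and 78.3 ± 22.7. Ido1, the dioxygenase used outside the liver in place of Tdo2, had 0 reads in all 6 libraries, which allows up to 3 reads per library by counting error. Ido2 had 4, 11 and 14 reads in WT and 3, 2 and 8 in HSKO. Its normalized values overlapped, with WT libraries at 3.05, 7.24 and 7.90 and HSKO libraries at 4.38, 2.91 and 10.6. The other 19 genes lay below the filter and were not tested at that setting.

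Genes known to respond to glucocorticoid, or to regulate Tat and Tdo2, formed a second list of 18, of which 8 passed the filter. Of these, 4 were called higher and 0 lower, against 28.5% and 11.6% of all genes, and the median log2 fold change was 0.45 against 0.07. Cebpb, a transcription factor of Tat and gluconeogenic genes, was at 64.9, 59.9 and 47.9 in WT and at 127, 108 and 168 in HSKO (log2 fold change 1.19, SE 0.25, limma adjusted p = 0.00142). Fkbp5, a co-chaperone of the glucocorticoid receptor, was at 13.7, 22.4 and 13.5 in WT and at 24.8, 34.9 and 41.2 in HSKO (0.99, limma adjusted p = 0.0138). Both separated the groups, as 31.4% of all genes did in that direction.

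The metallothionein Mt1 was at 21.4, 9.87 and 9.59 in WT and at 24.8, 24.7 and 51.9 in HSKO (log2 fold change 1.26, limma adjusted p = 0.00892). Pck1, the phosphoenolpyruvate carboxykinase, was at 333, 369 and 396 in WT and at 551, 603 and 598 in HSKO (0.67, limma adjusted p = 0.0201). Tat and Mt1 shared their highest HSKO library, replicate 3, and so did Cebpb and Fkbp5. Among HSKO libraries, Hpd, Hgd, Gstz1, Fah, Tdo2 and Kynu were also highest in replicate 3. In WT, replicate 3 was the highest library for Tat (118) but the lowest for Mt1, Cebpb and Fkbp5 (9.59, 47.9 and 13.5). A link between Tat and these genes was not tested. Hnf4a and Cebpa, factors of the hepatocyte, had log2 fold changes of -0.06 and 0.09 and did not pass. Nr3c1, the glucocorticoid receptor gene, had 9, 19 and 19 reads in WT and 4, 5 and 2 in HSKO, below the filter. After division by size factors, WT libraries stood at 6.87, 12.5 and 10.7 and HSKO libraries at 5.85, 7.27 and 2.66. HSKO replicate 2 was then above WT replicate 1, so the groups overlapped.

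The calls of this list depended on scaling. Higher members numbered 2 with upper quartile scaling, 3 with quantile normalization and with edgeR, 1 with reads outside the most abundant row, 4 with hepatocyte markers and 0 with total reads, where 2 were lower. With total reads the log2 fold change of Pck1 was -0.00027, while those of Cebpb, Fkbp5 and Mt1 were 0.53, 0.34 and 0.62, none called. Relative to the median of all genes, Cebpb lay between 0.82 and 1.14, Mt1 between 1.18 and 1.27, Fkbp5 between 0.87 and 0.93 and Pck1 between 0.03 and 0.63 over the 7 scalings. Against the median of genes with a mean of at least 50, with the deposited scaling, Cebpb lay at 0.32 and Pck1 at -0.20. Fkbp5 lost its call without WT replicate 3 (adjusted p = 0.0598) or HSKO replicate 3 (0.0533), and Mt1 without HSKO replicate 3 (0.0579). For Pck1 the adjusted p was 0.0742 without WT replicate 2 and 0.0866 without HSKO replicate 2. With no filter on low values the calls of Fkbp5 (0.0531) and Pck1 (0.0708) were lost, and that of Pck1 also without the mean-variance trend (0.0550).

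**Figure D5:**
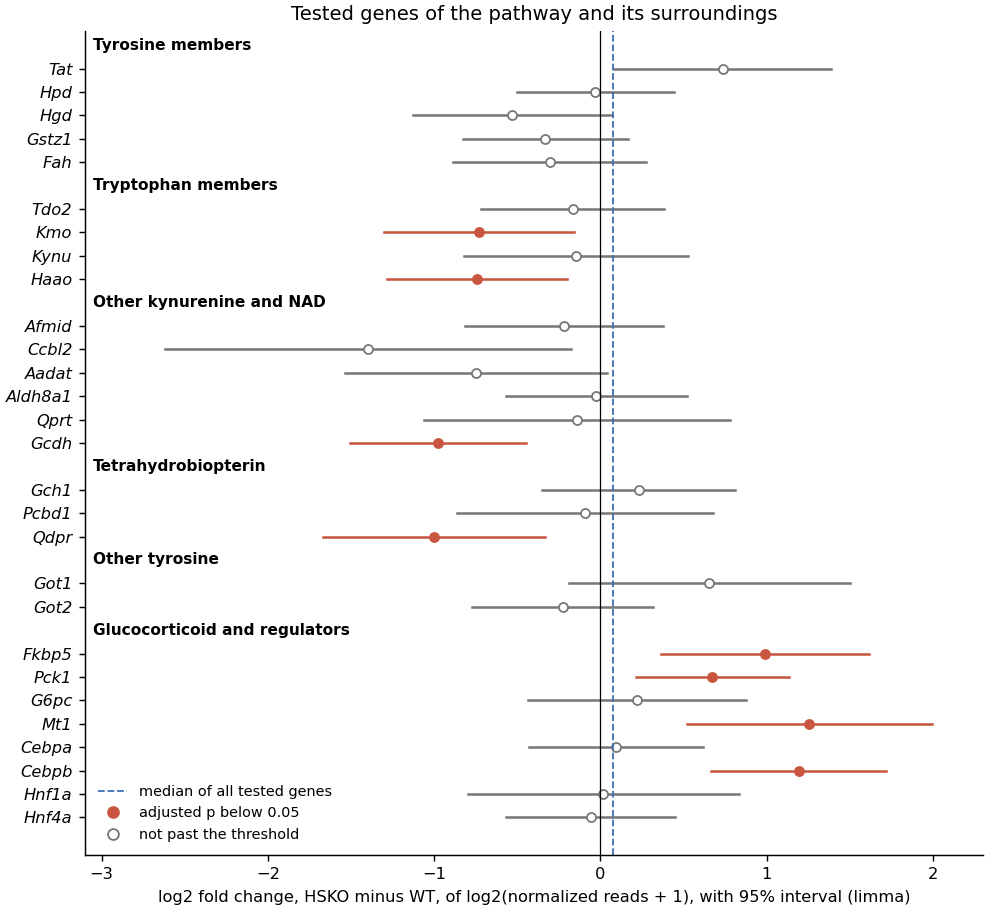
Log2 fold change, HSKO minus WT, with its 95% interval from limma for the members and the tested genes of the other lists, filled red where the adjusted p is below 0.05. Kmo, Haao, Gcdh and Qdpr are called lower, Cebpb, Mt1, Fkbp5 and Pck1 higher, and the dashed line is the median of all tested genes at 0.07.

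The genes whose pattern over the 6 libraries was most like the mean pattern of each route were taken by Pearson's r of log2(value + 1), as a description. For the tyrosine genes these were St3gal3, Rps4x, Fmo5, Itpr1 and Cox6b1, with r from 0.956 to 0.977. Fmo5, a flavin monooxygenase, was at 83.2, 90.2 and 106 in WT and at 70.2, 71.3 and 104 in HSKO, with replicate 3 highest in both groups. For the tryptophan genes they were Sppl2a, Tmem56, Cps1, Ugt2b36 and Rnf13, with r from 0.977 to 0.996. Cps1, the first enzyme of the urea cycle and 1 of the 14 hepatocyte markers, was at 272, 441 and 458 in WT and at 294, 259 and 283 in HSKO. All points share the same libraries and their scaling.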

How the data were processed

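Liver RNA of 6 libraries was measured, 3 per group, with a stranded, paired-end mRNA kit per the labels' protocols. The authors deposited, for each gene row, a signal that equals reads over the library's size factor. DESeq 1.16.0, RSEM 1.2.9, Bowtie, FastQC 0.11.3 and mm10 are named in the submitters' processing notes, which do not say what each did. The sources used here give no annotation, filter or strand setting. Dividing by the value of 1 read gave whole numbers for 100% of values (tolerance 0.001), which were used as reads.

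Limma 3.58.1 (R 4.3.3) was fitted to log2(value + 1) with a mean-variance trend for 2750 rows whose mean reached 10, with Benjamini-Hochberg adjustment. Recovered reads were also tested with edgeR 4.0.16 (quasi-likelihood, TMM; 1285 calls) and DESeq2 1.42.0 (869 calls). The procedure was tested on simulated data. Members, lists and tests were chosen with earlier results of these data known. Named genes are the members, Abca1, called genes of the lists, genes on which a result turns and the 5 most alike per route. Others named (Ccbl2, Aadat, Got1, Aldh8a1, Ido1, Ido2, Hnf4a, Cebpa and Nr3c1) were chosen after their values were seen. Intervals of read ratios are exact and cover counting error only. Positions of genes are GENCODE M21 on mm10, and the start used for the Haao promoter differs from them. Alternatives are in the closing section.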

Additional observations from a re-analysis of the deposited data

How the results depend on the processing

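Of 310 values of single genes under alternatives, 236 kept direction and side of the threshold, 42 lost a call, 20 gained one and 12 changed sign; the cause was not tested. Members called lower (2) numbered 0 with no filter, a minimum mean of 50 (4 tested), hepatocyte markers and DESeq2, 1 with no trend, 4 with upper quartile, 5 with quantile normalization and 7 with total reads and with reads outside the most abundant row, the last chosen after seeing the data. Members called higher (0) numbered 1, Tat, with a minimum mean of 50 and hepatocyte markers. Other pathway genes lower (2) numbered 1 with no filter and DESeq2, 0 with a minimum mean of 50 and hepatocyte markers, 4 with upper quartile and edgeR, 7 with total reads and 6 with reads outside the top row; higher (0) numbered 1 with hepatocyte markers. Genes called lower (320) numbered 211 with no filter, 118 with a minimum mean of 50, 703, 502, 1044, 42 and 913 with upper quartile, quantile, total reads, hepatocyte markers and reads outside the top row, 182 with DESeq2 and 601 with edgeR. Genes called higher (783) numbered 391 with a minimum mean of 50 (688 tested), 221 with total reads and 429 with reads outside the top row.

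Leaving out each library in turn gave 0 to 1 members lower and 0 to 1 higher, 1 to 3 other pathway genes lower and 0 to 1 higher, 157 to 313 genes lower (157 without WT replicate 3, 159 without WT replicate 2) and 581 to 822 higher. Log2 fold changes of Hpd were -0.146 to 0.0337, of Tdo2 -0.388 to 0.0155 and of Kynu -0.422 to 0.0326. With hepatocyte markers those of Hpd, Gstz1, Fah, Tdo2 and Kynu were 0.48, 0.18, 0.20, 0.35 and 0.34, and with total reads that of Pck1 was -0.00027. With the replicate block, members lower numbered 1 (Kmo adjusted p = 0.0604) and higher 1 (Tat, 0.0349). Same-numbered libraries did not deviate together (r -0.03 to -0.02). With rows of few reads this cannot exclude a pairing by number, and the labels state none.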
